A study of Mus musculus with 8 samples.

Results

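Among the protein-coding genes counted in Lewis lung carcinoma (LLC) cells, 34 were close to silent in every WT library and carried reads in cells lacking factor-inhibiting HIF (FIH). They were chosen from the counts themselves: the reads of a gene summed over the 4 WT libraries had to be 12 or fewer, and its mean over the 4 FIH-KO libraries had to be 20 or more. The table held 53700 genes, of which 21899 were protein coding and 10737 of those had a mean of 20 or more reads in FIH-KO cells. In all, 37 genes met both limits, and Mgst1, Cited1 and Mageh1 are not described here. Col4a5 and Dppa4, also not described, lay above the WT limit with 38 and 29 reads. Because the difference between FIH-KO and WT cells selected these genes, it is given as a description, with no test, and the tests concern oxygen within FIH-KO cells and the genes that lie next to the 34.

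LLC is a mouse carcinoma line that grows in C57BL/6 mice. RNA-Seq was performed on 4 groups with 2 libraries each: WT cells in normoxia (21% O2), WT cells in hypoxia (1% O2), FIH-KO cells in normoxia and FIH-KO cells in hypoxia, all cultured for 16 hours and given no other treatment. FIH was removed with a CRISPR/Cas9 ribonucleoprotein whose guide cuts an early exon of Hif1an, the gene encoding FIH, and the edited cells were diluted to single cells and picked as clones. The sources used here do not say how many clones the FIH-KO libraries came from, so deletion of FIH and differences between founder cells cannot be told apart in any comparison of FIH-KO with WT cells. They also do not say whether the 2 libraries of a group came from separate cultures, so the p-values measure the spread between these libraries, which may be technical.

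FIH is an oxygen-dependent asparagine hydroxylase. It modifies the C-terminal transactivation domain of the HIF-α subunits and thereby blocks their binding to the coactivators, while prolyl hydroxylases control the stability of the same subunits. HIF dimers bind a short DNA core, the hypoxia response element, near genes of glycolysis, angiogenesis and pH control.

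Library totals ran from 14519731 to 18177016 counts. Hif1an was counted at 1231 to 1609 reads in WT libraries and at 584 to 784 in FIH-KO libraries, so each FIH-KO library lay below each WT library. Among 42 tested genes of a list of known HIF targets, 37 were higher and 0 lower in hypoxia than in normoxia within FIH-KO cells (edgeR, adjusted p under 0.05), with a median log2 fold change of 1.88. None of the 34 genes belongs to that list, an absence that the WT limit nearly fixed. Of the 44 genes listed, 42 had a mean of 20 or more reads in WT libraries and 2 met the WT limit. Of the 16 leukocyte markers, Cd3e, Cd3d, Adgre1, Tyrobp and Nkg7 had 0 reads in all 8 libraries, and Ptprc had 0 to 3. Others were counted: Cd68 had 41 to 91 reads in WT and 48 to 115 in FIH-KO libraries. Csf1r had 53 and 22 reads in hypoxic WT and 31 and 10 in hypoxic FIH-KO libraries, and 0 to 2 in normoxic ones. Coro1a had 1 to 6 reads in WT and 11 to 25 in FIH-KO libraries. The 16 markers summed to 3.47 to 10.2 CPM, the read count scaled to the depth of the library. The 10 endothelial markers summed to 7.44 to 12.3 CPM in WT and 12.7 to 20.2 CPM in FIH-KO libraries. Egfl7 carried this sum, with 75 to 197 reads in WT and 184 to 345 in FIH-KO libraries. Cdh5 went the other way in hypoxia, with 35 and 18 reads in WT and 5 and 3 in FIH-KO libraries. The 13 epithelial markers summed to 226 to 352 CPM in WT and 335 to 539 CPM in FIH-KO libraries, carried by Krt8 and Krt18, while Epcam, Nkx2-1 and Sftpc had 0 reads throughout. The 10 fibroblast and mesenchymal markers summed to 1370 and 1760 CPM in WT and 2240 and 1910 CPM in FIH-KO libraries in normoxia. In hypoxia they summed to 612 and 746 CPM in WT and 1370 and 1850 CPM in FIH-KO libraries. FIH-KO libraries thus lay above WT libraries in each oxygen condition. Col3a1 carried the sum, while Pdgfra had 264 to 427 reads in WT and 111 to 311 in FIH-KO libraries. The 13 germline and pluripotency markers summed to 0.711 to 1.57 CPM in WT and 18.2 to 22.5 CPM in FIH-KO libraries, with Pou5f1 and Nanog at 0 in all 8 and Dppa4 supplying most of the reads. The part of these markers in the levels of the 34 genes was not tested. In bulk RNA, a gene made by a few cells and a gene made at a low level by all cells cannot be told apart.

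The 7 genes that passed the oxygen test within FIH-KO cells are shown first by the 250 bases before their transcription start, since the start region is where a hypoxia response element or a TATA box would bear on them. Capitals mark the hypoxia response element cores ACGTG and GCGTG, which read CACGT and CACGC when they lie on the other strand, and the words TATAAA and TATATA where they lie in the last 45 bases. A CACGTG word holds a core on each strand and counts as a match on both. The first 3 genes were higher and the last 4 lower in hypoxia. Mmp12, Prl2c5 and Vsnl1 reached a mean of 20 reads in 1 oxygen condition only, so their difference was partly built into the selection.
Mmp12: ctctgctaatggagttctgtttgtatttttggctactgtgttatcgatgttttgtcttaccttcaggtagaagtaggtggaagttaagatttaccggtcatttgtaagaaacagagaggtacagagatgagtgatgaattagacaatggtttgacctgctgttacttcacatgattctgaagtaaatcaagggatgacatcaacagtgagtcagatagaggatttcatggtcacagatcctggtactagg
Prl2c5: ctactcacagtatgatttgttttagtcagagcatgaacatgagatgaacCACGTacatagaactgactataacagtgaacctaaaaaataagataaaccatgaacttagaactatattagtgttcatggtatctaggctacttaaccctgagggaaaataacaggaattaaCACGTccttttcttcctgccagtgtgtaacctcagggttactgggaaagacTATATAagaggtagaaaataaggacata
Mtm1: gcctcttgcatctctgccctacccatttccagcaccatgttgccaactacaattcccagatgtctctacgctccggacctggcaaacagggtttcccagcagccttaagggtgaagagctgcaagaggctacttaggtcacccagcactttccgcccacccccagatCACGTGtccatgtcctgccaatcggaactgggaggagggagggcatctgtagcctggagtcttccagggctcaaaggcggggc
Inmt: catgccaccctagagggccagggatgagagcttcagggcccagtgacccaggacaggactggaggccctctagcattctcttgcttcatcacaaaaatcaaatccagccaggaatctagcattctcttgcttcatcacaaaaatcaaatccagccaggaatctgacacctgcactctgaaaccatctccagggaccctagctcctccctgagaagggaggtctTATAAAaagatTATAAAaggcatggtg
Vsnl1: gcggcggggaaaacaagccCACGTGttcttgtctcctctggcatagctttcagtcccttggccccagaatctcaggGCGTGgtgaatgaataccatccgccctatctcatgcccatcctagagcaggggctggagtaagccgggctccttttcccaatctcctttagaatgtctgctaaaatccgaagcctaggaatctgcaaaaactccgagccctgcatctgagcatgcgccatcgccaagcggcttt
Cemip: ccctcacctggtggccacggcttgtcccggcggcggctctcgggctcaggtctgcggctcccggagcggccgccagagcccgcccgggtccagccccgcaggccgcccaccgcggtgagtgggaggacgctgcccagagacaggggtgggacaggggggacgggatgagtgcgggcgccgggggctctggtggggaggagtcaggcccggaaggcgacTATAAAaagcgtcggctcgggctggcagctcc
Abi3bp: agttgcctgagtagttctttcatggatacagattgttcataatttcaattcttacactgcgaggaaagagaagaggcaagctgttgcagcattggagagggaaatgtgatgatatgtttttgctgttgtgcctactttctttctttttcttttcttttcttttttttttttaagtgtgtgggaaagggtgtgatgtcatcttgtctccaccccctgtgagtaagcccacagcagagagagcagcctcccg
In GRCm39 these windows are chr9:7347124-7347373 (plus strand) for Mmp12, chr13:13357048-13357297 (plus strand) for Prl2c5, chrX:70258347-70258596 (plus strand) for Mtm1, chr6:55152029-55152278 (minus strand) for Inmt, chr12:11486722-11486971 (minus strand) for Vsnl1, chr7:83735711-83735960 (minus strand) for Cemip and chr16:56297935-56298184 (plus strand) for Abi3bp. The Mtm1 window held a CACGTG word, its core starting at -82 from the transcription start on the gene strand. Prl2c5 held 2 cores on the other strand, starting at -201 and -79, and a TATATA word. Vsnl1 held a CACGTG word at the far end of the window and a GCGTG at -174. Mmp12, Inmt, Cemip and Abi3bp had no core in these 250 bases. Inmt carried TATAAA at 2 places and Cemip at 1.

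Over all 34 genes, 16 windows (47.1%) held at least 1 core. That share was 41.2% over 21700 protein-coding genes and 55.3% over the protein-coding genes with a mean of 20 or more reads in FIH-KO cells, so the 34 lay between the other sets. The TATA words occurred in 4 windows (11.8%: Inmt, Cemip, Nhs and Prl2c5), against 4.11% and 1.27% in the same sets. The 34 start regions were poor in CpG. The median ratio of observed to expected CpG within 500 bases of the start on either side was 0.39, against 0.57 over all protein-coding genes and 0.74 over those read in FIH-KO cells, and 11 of the 34 (32.4%) reached 0.6, against 47.6% and 77.1%. These are counts of words in fixed windows and say nothing of binding.

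In total, the 34 genes took 47, 55, 84 and 60 reads in the 4 WT libraries (normoxia, then hypoxia), and 2474, 2264, 1423 and 1375 reads in the 4 FIH-KO libraries in the same order. No gene was without any WT read: the WT sums ran from 2 to 12 with a median of 7, and the highest count of any of these genes in a single WT library was 8 (Mmp12 in hypoxia). In 32 of the 34 genes every FIH-KO library lay above every WT library. The exceptions were Mmp12 and Prl2c5, whose reads came almost wholly from the hypoxic FIH-KO libraries. The plot of read counts by library shows 33 of the 34 genes.

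**Figure D1:**
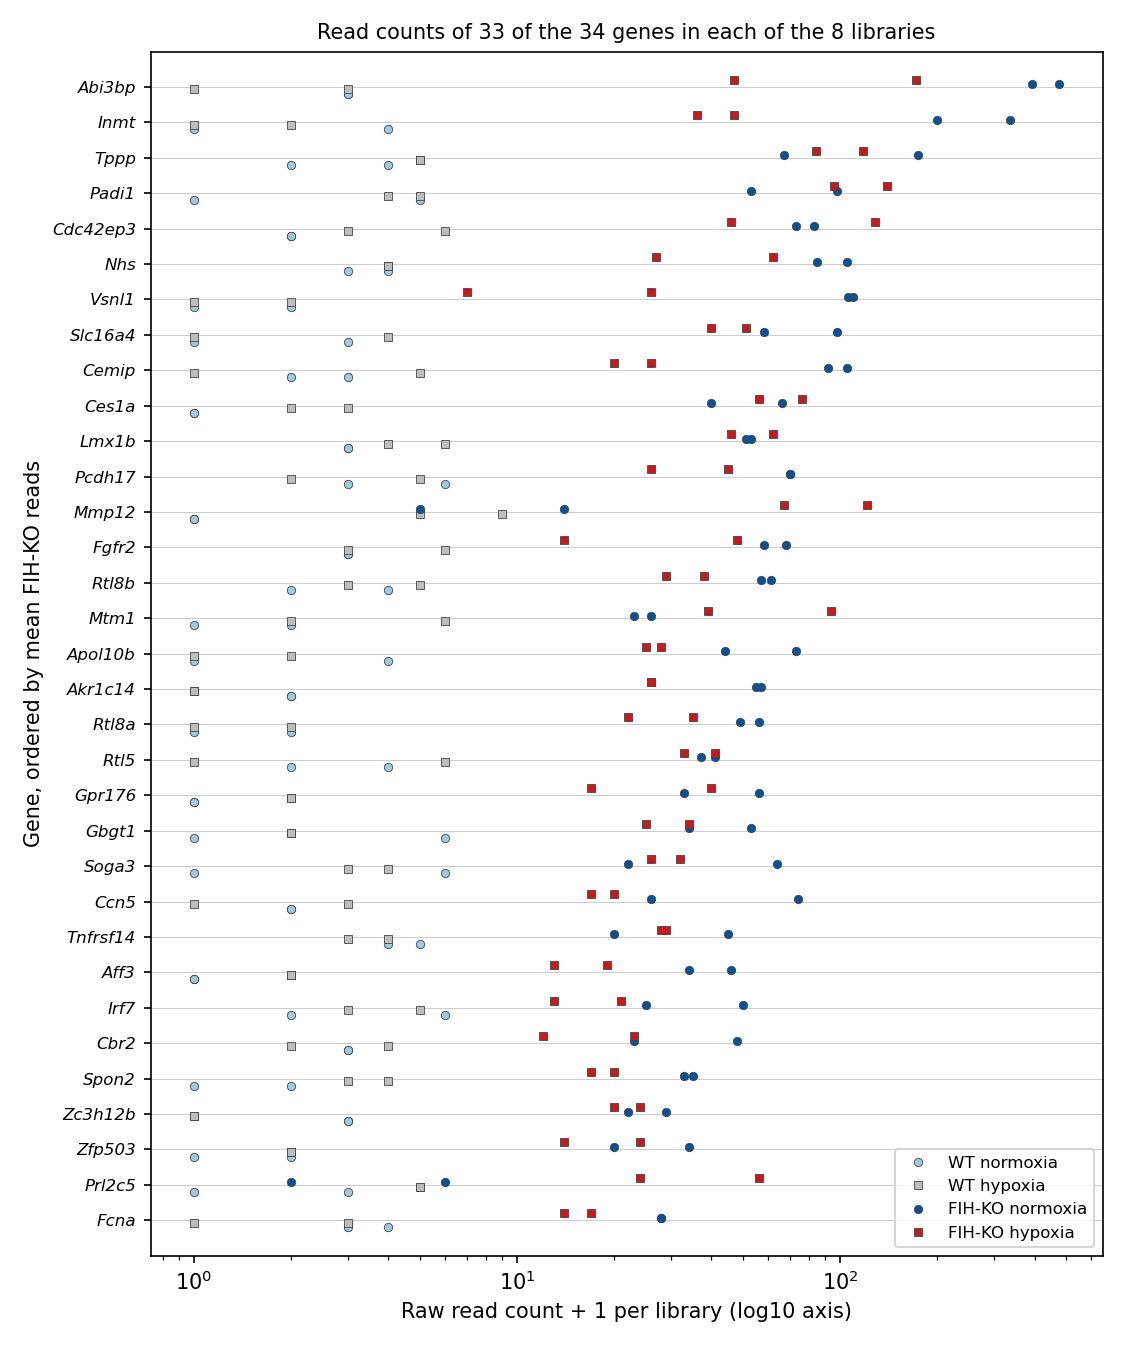
Raw read counts plus 1 of 33 of the 34 genes (rows, ordered by mean reads in FIH-KO libraries) in the 8 libraries, on a log10 axis; points are single libraries. Apart from Mmp12 and Prl2c5, every gene has its 4 FIH-KO libraries to the right of its 4 WT libraries, and no WT library exceeds 8 reads.

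These were low-abundance transcripts also in FIH-KO cells. Scaled by exon length as TPM, a depth-scaled measure per length of transcript, the mean levels of the 34 genes over the FIH-KO libraries ran from 0.397 for Soga3 to 22.0 for Inmt, with a median of 2.15 TPM, while 10731 protein-coding genes with a mean of 20 or more reads had a median of 30.7 TPM. Inmt was followed by Abi3bp at 6.86 TPM, Rtl8b at 5.80 TPM, Cdc42ep3 at 5.66 TPM and Rtl8a at 5.23 TPM. Inmt ranged from 5.13 to 48.0 TPM and Abi3bp from 1.18 to 11.6 TPM between FIH-KO libraries, so the order of Abi3bp, Rtl8b (3.60 to 7.30 TPM), Cdc42ep3 (3.44 to 8.84 TPM) and Rtl8a (2.79 to 7.16 TPM) lies within the spread between libraries. Abi3bp and Inmt alone supplied 29.5% of the reads of the 34 genes in normoxic FIH-KO cells and 10.7% in hypoxic ones. The other 32 genes together had 1749 and 1590 reads in normoxia and 1342 and 1158 in hypoxia.

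Within FIH-KO cells, most of these genes were fitted lower in hypoxia, though few passed the test one by one. All 34 genes were tested with edgeR against the spread between libraries, with adjustment over 13933 genes. In hypoxia 3 genes were higher (Mmp12, Prl2c5 and Mtm1), where 8.84% of all tested genes were higher, and 4 were lower (Inmt, Vsnl1, Cemip and Abi3bp), where 8.0% of all tested genes were lower. Together 7 of the 34 (20.6%) passed, near the 16.8% of all tested genes. The lower limit was set on the mean over all 4 FIH-KO libraries. It was met in both oxygen conditions by 24 genes, in normoxia only by 8 and in hypoxia only by 2 (Mmp12 and Prl2c5). The 8 were Cbr2, Irf7, Fcna, Ccn5, Aff3, Spon2, Zfp503 and Vsnl1. For all 10 genes the difference between oxygen conditions was partly built into the selection, so their values are given as a description. Of the 24 genes, 1 (Mtm1) was higher and 3 (Inmt, Cemip and Abi3bp) were lower in hypoxia. The direction was less even. The fitted change was below 0 in 26 of the 34 genes (76.5%), against 52.9% of all tested genes, and the median log2 fold change was -0.67, against -0.03. Among the 24 genes it was below 0 in 18, with a median of -0.48. The WT limit also counted the hypoxic WT libraries, so genes with many reads in hypoxic WT cells were left out. All tested genes include such genes, and the part of the WT limit in the direction was not tested. Both hypoxic libraries lay below both normoxic libraries in 17 genes, where 29.3% of all tested genes did so, and above them in 4 genes, where 25.9% did so. In the remaining 13 genes the libraries overlapped. The 17 include Vsnl1, Ccn5, Aff3, Irf7, Spon2 and Fcna, and the 4 include Mmp12 and Prl2c5. For these named genes the separation was partly built into the selection. The depth limits single genes: the standard error of the log2 fold change had a median of 0.42 over the 34 genes (0.31 to 0.70) and of 0.17 over all tested genes.

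**Figure D2:**
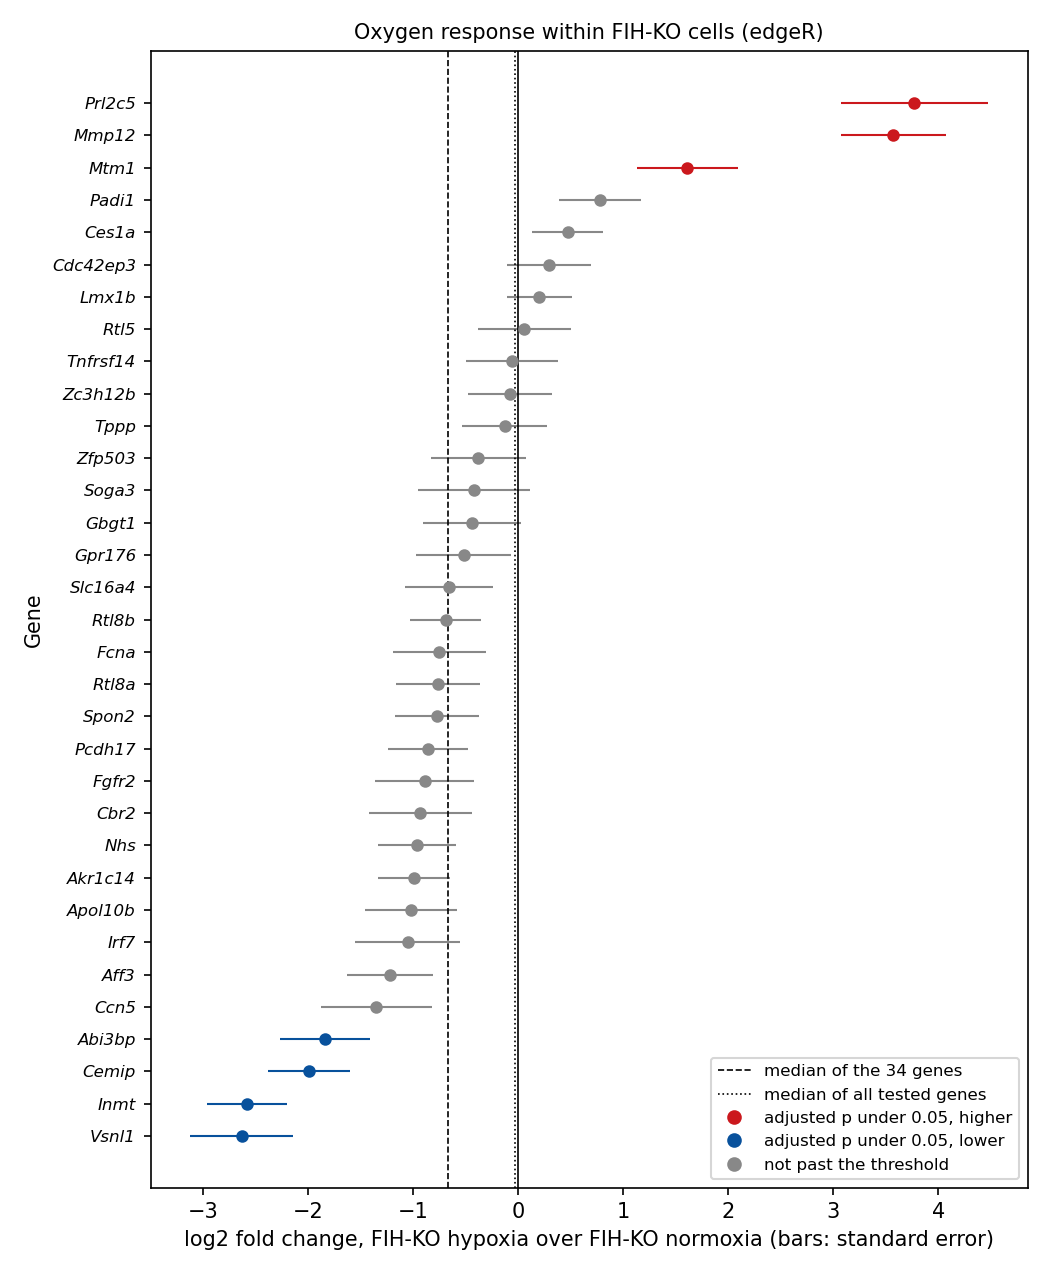
Log2 fold change of 33 of the 34 genes between hypoxia and normoxia in FIH-KO cells (edgeR; bars are the standard error; n = 2 libraries per group), with the median of the 34 genes at -0.67 and of all tested genes at -0.03 as broken lines. The points run from -2.63 for Vsnl1 to 3.77 for Prl2c5, and 25 of the 33 lie left of 0.

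Secreted and matrix genes held 2 of the 4 genes that fell. Abi3bp, which encodes a secreted matrix protein that binds collagen and other partners, lies at chr16:56298185-56510576 on the plus strand and has 60 exons. It had 391 and 476 reads in normoxic FIH-KO cells and 46 and 171 in hypoxic ones, against 2, 2, 0 and 2 in WT cells. Both hypoxic libraries were below both normoxic ones but they stood apart from each other, at 2.87 and 11.1 CPM, and normoxia averaged 25.0 ± 2.38 CPM (SD, n = 2). The log2 fold change was -1.84 (SE 0.43, edgeR adjusted p = 0.013). Without the second normoxic FIH-KO library it was -1.71 with an adjusted p of 0.064, and the size turned on the hypoxic libraries, at -1.14 (adjusted p = 0.017) without the first of them and -3.12 (adjusted p = 3.4e-05) without the second.

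Cemip, a hyaluronan-binding protein needed for hyaluronan breakdown, lies at chr7:83582065-83735710 on the minus strand and has 29 exons. Its reads were 91 and 104 in normoxic and 19 and 25 in hypoxic FIH-KO cells, and 1, 2, 4 and 0 in WT cells. The groups did not overlap, with 5.62 ± 0.285 CPM in normoxia and 1.41 ± 0.311 CPM in hypoxia (SD, n = 2). The log2 fold change was -1.99 (SE 0.39, edgeR adjusted p = 0.0053). Ccn5, a matricellular protein of the CCN family, had 73 and 25 reads in normoxic and 19 and 16 in hypoxic FIH-KO cells. Its log2 fold change of -1.35 (SE 0.53) did not pass (edgeR adjusted p = 0.10). It was -1.93 without the second normoxic FIH-KO library, the nearer one, and -0.31 without the first. Spon2, a secreted spondin, had 34 and 32 reads in normoxia and 16 and 19 in hypoxia and did not pass either (log2 fold change -0.77, SE 0.40, adjusted p = 0.22). Ccn5 and Spon2 met the lower limit in normoxia only, so their values are a description.

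Mmp12, the macrophage elastase, had the opposite profile. It lies at chr9:7347374-7360461 on the plus strand, with 10 exons, in the cluster of metalloproteinase genes. Its reads were 4 and 13 in normoxic and 120 and 66 in hypoxic FIH-KO cells, and 0, 0, 8 and 4 in WT cells. Normoxic FIH-KO cells therefore lay at 0.483 ± 0.346 CPM, beside hypoxic WT cells at 0.361 ± 0.124 CPM, and only hypoxic FIH-KO cells stood clear of the other groups, at 5.90 ± 2.26 CPM (SD, n = 2). Within FIH-KO cells the log2 fold change was 3.57 (SE 0.50), given as a description because the hypoxic libraries alone brought the gene over the lower limit. The macrophage markers Csf1r and Cd68 had 1 and 0 (Csf1r) and 87 and 77 (Cd68) reads in normoxic FIH-KO cells, and 31 and 10 and 115 and 48 reads in hypoxic ones, while Adgre1, which defines mature macrophages, had 0 reads in all libraries. Csf1r also had 53 and 22 reads in hypoxic WT cells, in which Mmp12 had 8 and 4. All 16 leukocyte markers summed to 6.21 to 6.79 CPM in normoxic and 5.27 to 10.2 CPM in hypoxic FIH-KO cells, and their part in the Mmp12 result was not tested.

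Prl2c5, a proliferin of the prolactin family, had 5 and 1 reads in normoxic and 55 and 23 in hypoxic FIH-KO cells, and 2, 0, 4 and 4 in WT cells. As with Mmp12, only hypoxic FIH-KO cells stood clear of the others, at 2.47 ± 1.37 CPM against 0.177 ± 0.171 CPM in normoxia (SD, n = 2), and the log2 fold change was 3.77 (SE 0.70), again a description for a gene that met the lower limit through its hypoxic libraries. The gene lies at chr13:13357298-13366508 on the plus strand and shares sequence with its relatives: 19.6% of its 75-base exon windows occur also in Prl2c1, Prl2c2 or a related gene. Prl2c2, at 177.3 kb, had 582 and 1165 reads in normoxic FIH-KO cells and 5189 and 2105 in hypoxic ones. The Prl2c5 value is therefore uncertain, since how reads with several matches were counted is not stated, and the part of Prl2c2 reads in it was not tested. Fcna, the plasma lectin ficolin A and the gene nearest to the lower limit of the selection, had 27 and 27 reads in normoxia and 16 and 13 in hypoxia (log2 fold change -0.75, SE 0.44, adjusted p = 0.27). Fcna met that limit in normoxia only, so these values are a description.

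Among 66 tested genes of a list of matrix and matrix-associated genes, which includes Abi3bp, Cemip, Ccn5 and Spon2, 4 (6.06%) were higher and 24 (36.4%) lower in hypoxic FIH-KO cells, against 8.84% and 8.0% of all tested genes, and the median log2 fold change was -0.51, against -0.03. Ogn, a small leucine-rich proteoglycan (290 and 302 reads in normoxia, 41 and 60 in hypoxia), Thbs1 (1483 and 2566 against 688 and 1073) and Col6a1 (5039 and 6114 against 2570 and 3629) were among those that fell. Col12a1 rose, from 156 and 175 to 946 and 627 reads. The 10 fibroblast and mesenchymal markers summed to 1910 to 2240 CPM in normoxic and 1370 to 1850 CPM in hypoxic FIH-KO cells. That sum was carried by Col3a1, itself in the matrix list, with 36468 and 32258 reads in normoxia and 21141 and 26220 in hypoxia, which did not pass (log2 fold change -0.39, SE 0.17, edgeR adjusted p = 0.14). The fibroblast markers Pdgfra (-0.75, adjusted p = 0.082) and Dpt (0.42, adjusted p = 0.46) did not pass either. The 10 endothelial markers summed to 19.3 to 20.2 CPM in normoxia and 12.7 to 15.8 CPM in hypoxia, carried by Egfl7 with 311 and 345 against 184 and 228 reads, while Cdh5, which defines endothelial cells, had 0 and 1 against 5 and 3. Their part in the result was not tested.

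The plot of CPM by group shows the 7 genes that passed, of which Mmp12, Prl2c5 and Vsnl1 are given as a description.

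**Figure D3:**
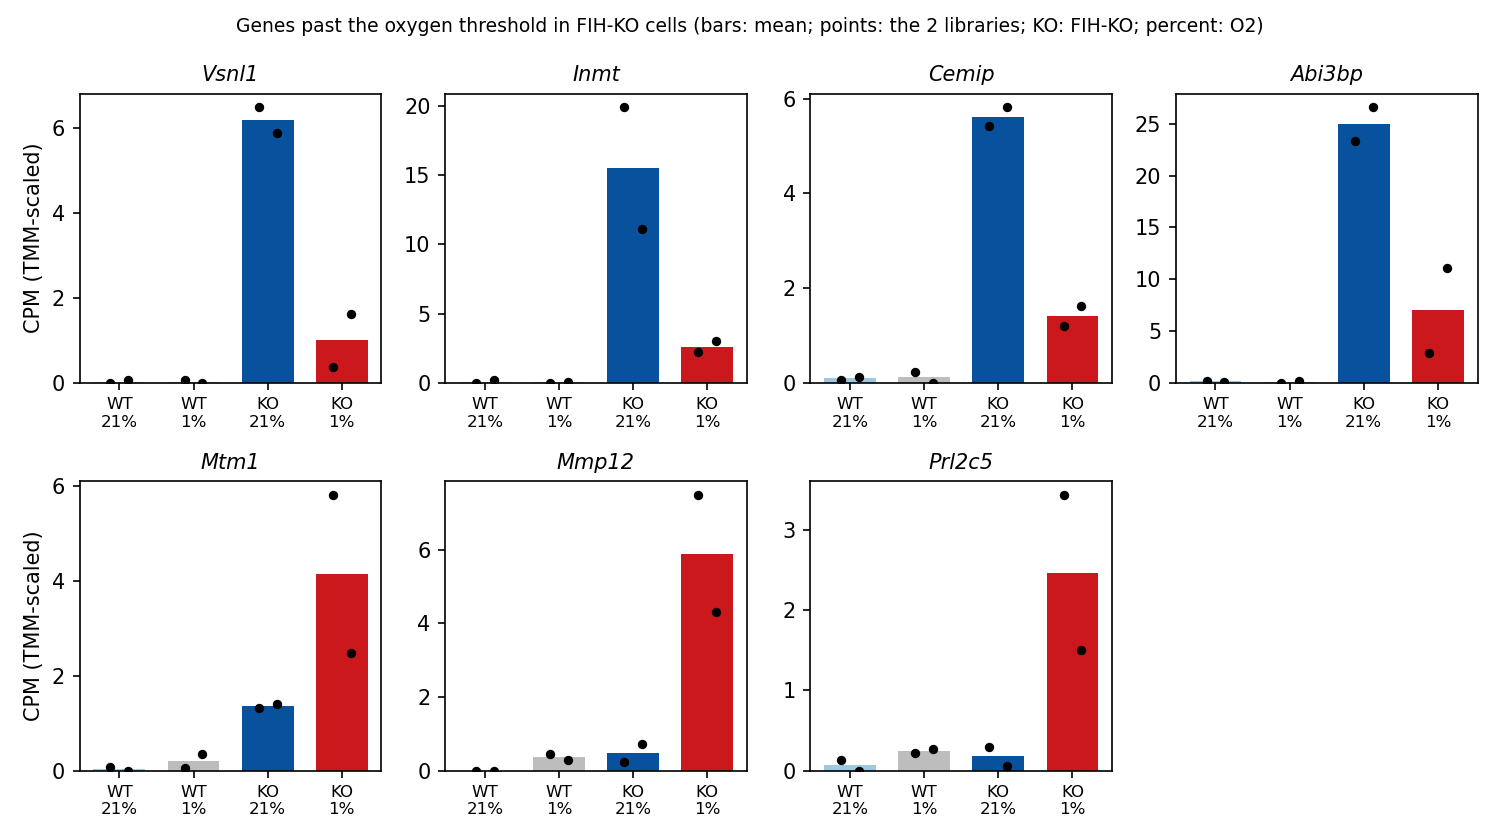
CPM (scaled with TMM factors) of the 7 genes past an adjusted p of 0.05 between hypoxia and normoxia in FIH-KO cells; bars are group means, points the 2 libraries, each panel with its own axis starting at 0. Vsnl1, Inmt, Cemip and Abi3bp are highest in normoxic FIH-KO cells, and Mtm1, Mmp12 and Prl2c5 in hypoxic ones. Vsnl1, Mmp12 and Prl2c5 met the lower limit of the selection in 1 oxygen condition only.

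Enzymes and a transporter formed another group. Inmt, the indolethylamine N-methyltransferase that methylates tryptamine and related amines, lies at chr6:55147606-55152028 on the minus strand, with 3 exons. It had 334 and 198 reads in normoxic FIH-KO cells, 35 and 46 in hypoxic ones, and 0, 3, 0 and 1 in WT cells. The oxygen groups did not overlap, at 15.5 ± 6.23 and 2.59 ± 0.571 CPM (SD, n = 2), and the log2 fold change was -2.58 (SE 0.38, edgeR adjusted p = 0.00088).

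Akr1c14, a hydroxysteroid dehydrogenase, had 56 and 54 reads in normoxic and 25 and 25 in hypoxic FIH-KO cells, 2 tight pairs that did not overlap. Its log2 fold change of -0.99 (SE 0.34) did not pass (edgeR adjusted p = 0.070), and it passed at 0.039 when only genes with at least 10 reads in every library of the contrast were tested. Cbr2, a carbonyl reductase, had 47 and 22 reads in normoxia and 22 and 11 in hypoxia. Scaled by depth the groups overlap, and the change did not pass (log2 fold change -0.93, SE 0.49, edgeR adjusted p = 0.22). Of the 75-base windows of Cbr2, 11.1% occur in another annotated gene. Cbr2 met the lower limit of the selection in normoxia only, so its change is a description. Ces1a, a carboxylesterase, had 39 and 65 reads in normoxia and 75 and 55 in hypoxia, which overlap (0.47, SE 0.34, adjusted p = 0.38). It was alone in its cluster: Ces1b to Ces1g had 0 or 1 read in each library.

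Padi1, a peptidylarginine deiminase that converts arginine in proteins to citrulline, was one of the more abundant of the 34 by reads, with 97 and 52 in normoxic and 139 and 95 in hypoxic FIH-KO cells. Scaled by depth both hypoxic libraries lay above both normoxic ones, at 7.43 ± 1.77 against 4.34 ± 2.03 CPM (SD, n = 2), but the change did not pass (log2 fold change 0.78, SE 0.39, edgeR adjusted p = 0.20). Slc16a4, of the monocarboxylate transporter family, had 97 and 57 reads in normoxia and 50 and 39 in hypoxia, and did not pass (-0.66, SE 0.42, adjusted p = 0.32). Gbgt1, which makes the Forssman glycolipid, also did not pass.

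Mtm1, a phosphatase of endosomal phosphoinositides mutated in myotubular myopathy, was higher in hypoxia. It lies at chrX:70258597-70359295 on the plus strand, with 15 exons. It had 22 and 25 reads in normoxic and 93 and 38 in hypoxic FIH-KO cells, and 1, 0, 1 and 5 in WT cells. The oxygen groups did not overlap, at 1.35 ± 0.0632 and 4.14 ± 2.36 CPM (SD, n = 2), though the hypoxic libraries differed more from each other than the lower of them did from normoxia. The log2 fold change was 1.61 (SE 0.48, edgeR adjusted p = 0.039). The call was the least firm of the 7: the adjusted p was 0.071 with DESeq2, 0.052 without either normoxic WT library, 0.16 and 0.13 without the first or second normoxic FIH-KO library, and 0.33, with a log2 fold change of 0.89, without the first hypoxic FIH-KO library.

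Of 55 tested genes in a list of xenobiotic and conjugating enzymes, which includes Inmt, Akr1c14, Cbr2 and Ces1a, 4 (7.27%) were higher and 13 (23.6%) lower in hypoxic FIH-KO cells, against 8.84% and 8.0% of all tested genes (median log2 fold change -0.38). The glutathione transferase Gstm1 (5009 and 3350 reads in normoxia, 1641 and 1111 in hypoxia) and the quinone reductase Nqo1 (4954 and 2615 against 1544 and 857) fell, and Aldh1l2, a mitochondrial folate enzyme, rose from 489 and 461 to 7783 and 3686 reads.

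Of the 34 genes, 7 were in a list of receptors and signal proteins. Vsnl1, a neuronal calcium sensor protein, lies at chr12:11375161-11486721 on the minus strand, with 4 exons. It had 109 and 105 reads in normoxic and 6 and 25 in hypoxic FIH-KO cells, and 0, 1, 1 and 0 in WT cells. Normoxia and hypoxia were far apart, at 6.18 ± 0.433 and 1.00 ± 0.886 CPM (SD, n = 2), with a log2 fold change of -2.63 (SE 0.49). It is given as a description, since the normoxic libraries alone brought the gene over the lower limit. The first hypoxic library, with 6 reads, lay near the WT level, and the log2 fold change was -1.89 without it and -4.02 without the second, a range that encloses the -2.58 of Inmt.

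Genes of the cytoskeleton and of cell adhesion did not pass. Cdc42ep3, an effector of the GTPase Cdc42, had 82 and 72 reads in normoxic and 127 and 45 in hypoxic FIH-KO cells, so that the hypoxic libraries enclosed the normoxic ones (log2 fold change 0.29, SE 0.40, edgeR adjusted p = 0.68). Tppp, which promotes tubulin polymerization, varied within groups, with 173 and 66 reads in normoxia and 83 and 117 in hypoxia (-0.13, SE 0.40, adjusted p = 0.87). Pcdh17, a protocadherin, had 69 and 69 reads in normoxia and 44 and 25 in hypoxia, which did not overlap (-0.86, SE 0.38, adjusted p = 0.15).

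Fgfr2, a receptor of fibroblast growth factors, had 67 and 57 reads in normoxia and 13 and 47 in hypoxia, with the hypoxic pair wide apart, and did not pass (log2 fold change -0.89, SE 0.47, edgeR adjusted p = 0.22). Without the second hypoxic library it was -2.14 with an adjusted p of 0.0097, and without the first it was -0.20 with an adjusted p of 0.79. The orphan receptor Gpr176 and Tnfrsf14, the HVEM receptor of the TNF receptor family, had overlapping oxygen groups and did not pass. Over 73 tested genes of the receptor and signalling list, 5 (6.85%) were higher and 10 (13.7%) lower in hypoxia, against the same 8.84% and 8.0% (median -0.22), Vsnl1 among the lower.

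None of the genes of transcription and RNA control passed the oxygen test. Lmx1b, a LIM-homeobox factor of limb and neuronal patterning that sat at the WT limit with 12 reads, had the smallest standard error of the 34, with 50 and 52 reads in normoxic and 61 and 45 in hypoxic FIH-KO cells (log2 fold change 0.20, SE 0.31, edgeR adjusted p = 0.73). Zfp503, a zinc-finger repressor, had 19 and 33 reads against 23 and 13 (-0.38, SE 0.45, adjusted p = 0.62). Aff3, of the AFF family of elongation factor scaffolds, had 33 and 45 reads in normoxia and 12 and 18 in hypoxia, which did not overlap, and came close to the threshold (-1.22, SE 0.41, adjusted p = 0.065). It passed at 0.049 with no filter on low counts and at 0.037 with the stricter one. Zfp503 and Aff3 met the lower limit of the selection in normoxia only, so their values are a description. The fall of Aff3 was partly built into the selection. In the list of developmental transcription factors, 2 of 70 tested genes (2.86%) were higher in hypoxia (Sox9 and Pax9) and 6 (8.57%) lower (median -0.13), the lower share being near the background of 8.0%.

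Irf7, the interferon regulatory factor that amplifies type I interferon responses, had 49 and 24 reads in normoxic and 12 and 20 in hypoxic FIH-KO cells, and 1, 5, 4 and 2 in WT cells, at the WT limit. Its change did not pass (log2 fold change -1.05, SE 0.50, edgeR adjusted p = 0.18), and is a description, since the gene met the lower limit in normoxia only. It overlaps Phrf1 on the opposite strand, which had 1835 to 2975 reads in each library, and the strand setting of the counting is not stated. Apol10b, an apolipoprotein L family gene of the same innate-defence list, had 43 and 72 reads in normoxia and 24 and 27 in hypoxia (-1.02, SE 0.44, adjusted p = 0.14). Over 34 tested genes of that list, 4 (11.8%) were higher and 5 (14.7%) lower in hypoxia, against 8.84% and 8.0% of all tested genes (median -0.18).

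The X chromosome carried 7 of the 34 genes (20.6%), against 3.16% of the protein-coding genes with a mean of 20 or more reads in FIH-KO cells. The 7 included Nhs, Mtm1, Rtl8a, Rtl8b, Rtl5 and Zc3h12b. Over all 363 tested X-linked protein-coding genes, 26.7% in normoxia and 31.4% in hypoxia were higher in FIH-KO than in WT cells, where 15.2% and 14.1% of all tested genes were. Chromosome 2 carried 5 (14.7%, against 8.2%). Rtl8a and Rtl8b were the only pair of the 34 that lay next to each other, with 0 protein-coding genes in the 25.5 kb between them. Both are single-exon genes of retrotransposon Gag origin, and their start regions are shown because they are neighbours and near copies.
Rtl8a: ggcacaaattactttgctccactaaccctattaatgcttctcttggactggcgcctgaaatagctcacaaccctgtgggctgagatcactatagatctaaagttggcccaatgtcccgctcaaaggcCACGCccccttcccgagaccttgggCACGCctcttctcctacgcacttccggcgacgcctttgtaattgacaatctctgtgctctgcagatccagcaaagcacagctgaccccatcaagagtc
Rtl8b: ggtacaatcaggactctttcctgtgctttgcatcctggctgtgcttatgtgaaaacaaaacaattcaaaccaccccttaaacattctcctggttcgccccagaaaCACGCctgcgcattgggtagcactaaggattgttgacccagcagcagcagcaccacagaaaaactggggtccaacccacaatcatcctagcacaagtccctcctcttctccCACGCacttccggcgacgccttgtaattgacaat
The windows are chrX:52645650-52645899 (minus strand) for Rtl8a and chrX:52672376-52672625 (minus strand) for Rtl8b in GRCm39, with capitals again marking cores, at -123 and -98 in Rtl8a and at -145 and -34 in Rtl8b. Of the 7 X-linked windows, 6 held a core, and of the 27 autosomal ones 10, where 41.2% of all protein-coding genes did. The 6 include both near copies. The share over all X-linked genes is not given here, so no difference between X and autosomes is drawn from these counts.

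Rtl8b had 56 and 60 reads in normoxic and 28 and 37 in hypoxic FIH-KO cells, and 3, 1, 4 and 2 in WT cells. Rtl8a had 55 and 48 against 21 and 34, and 1, 0, 1 and 0 in WT cells. In both genes the hypoxic libraries lay below the normoxic ones, and neither passed (log2 fold changes -0.69, SE 0.34, and -0.76, SE 0.40, edgeR adjusted p = 0.20 and 0.23). They are near copies, with 86.3% of the 75-base windows of Rtl8a and 75.1% of those of Rtl8b found in another member of the family, so reads could have been split between them or left uncounted. Another relative, Rtl8c, had 0 reads in WT and 0 to 4 in FIH-KO libraries. Rtl5, at another place on X, had 36 and 40 reads in normoxia and 40 and 32 in hypoxia, one of the flattest profiles (0.06, SE 0.44, adjusted p = 0.94). It lies inside Nhsl2 on the opposite strand, which had 2 to 6 reads in WT and 12 to 15 in FIH-KO libraries.

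Nhs, the gene of Nance-Horan syndrome and a regulator of actin at the cell edge, had 84 and 104 reads in normoxic and 26 and 61 in hypoxic FIH-KO cells, and 2 or 3 in each WT library. It did not pass (log2 fold change -0.96, SE 0.37, edgeR adjusted p = 0.10), and without the second hypoxic library it was -1.74 with an adjusted p of 0.0084, and without the first it was -0.42 with an adjusted p of 0.46. Zc3h12b, of a family of zinc-finger ribonucleases, had 21 and 28 reads against 23 and 19. In a list of X-linked retrotransposon-derived, Armcx, Bex, Tceal and MAGE genes, 0 of 21 tested were higher and 2 (9.52%) lower in hypoxia (Bex3 and Spin2c), near the background of 8.0%, with a median of -0.03. Spin2c had no WT read, 24 and 35 reads in normoxic and 8 and 6 in hypoxic FIH-KO cells, just under the lower limit for the FIH-KO mean.

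The nearest tested protein-coding gene on each side of each of the 34 was examined for the effect of genotype, which the choice of the 34 did not use for these neighbours. There were 66 such neighbours, at a median distance of 91.8 kb. In normoxia 24 of them (36.4%) were higher in FIH-KO than in WT cells (edgeR, adjusted p under 0.05), where 15.2% of all tested genes were higher, and 5 (7.58%) were lower, where 13.0% of all tested genes were lower. In hypoxia 22 (33.3%) were higher, against 14.1% of all tested genes, and 3 (4.55%) lower, against 13.9%. The median log2 fold change of the neighbours was 0.30 in normoxia and 0.25 in hypoxia, against 0 and -0.03 over all tested genes. In both conditions 19 neighbours were higher and 2 lower. The share of all tested genes called in both is not given here, so these are counts only. Some neighbours with few reads could be tested only because FIH-KO cells had reads of them, and such genes could be called in 1 direction alone. With at least 10 reads asked of every library of the contrast, 18 of 58 neighbours (31.0%) were higher in normoxia, against 15.1% of all tested genes, and 20 of 59 (33.9%) in hypoxia, against 14.2%. By chromosome, 18 of 54 autosomal and 1 of 12 X-linked neighbours were higher in both. Those X-linked neighbours come from a chromosome on which 26.7% of the tested coding genes in normoxia and 31.4% in hypoxia were higher. Leaving out some of the libraries lowered these shares together with those of all tested genes: without the second normoxic WT library 14 neighbours (21.2%) were higher in normoxia, against 7.67% of all tested genes, and without the first or second hypoxic WT library 13 (19.7%) or 14 (21.2%) were higher in hypoxia, against 8.27% or 8.75%. The lower calls in normoxia dropped from 5 to 0 without either normoxic WT library and to 1 or 2 without the first or second normoxic FIH-KO library, and those in hypoxia went from 3 to 5 without the second hypoxic FIH-KO library.

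**Figure D4:**
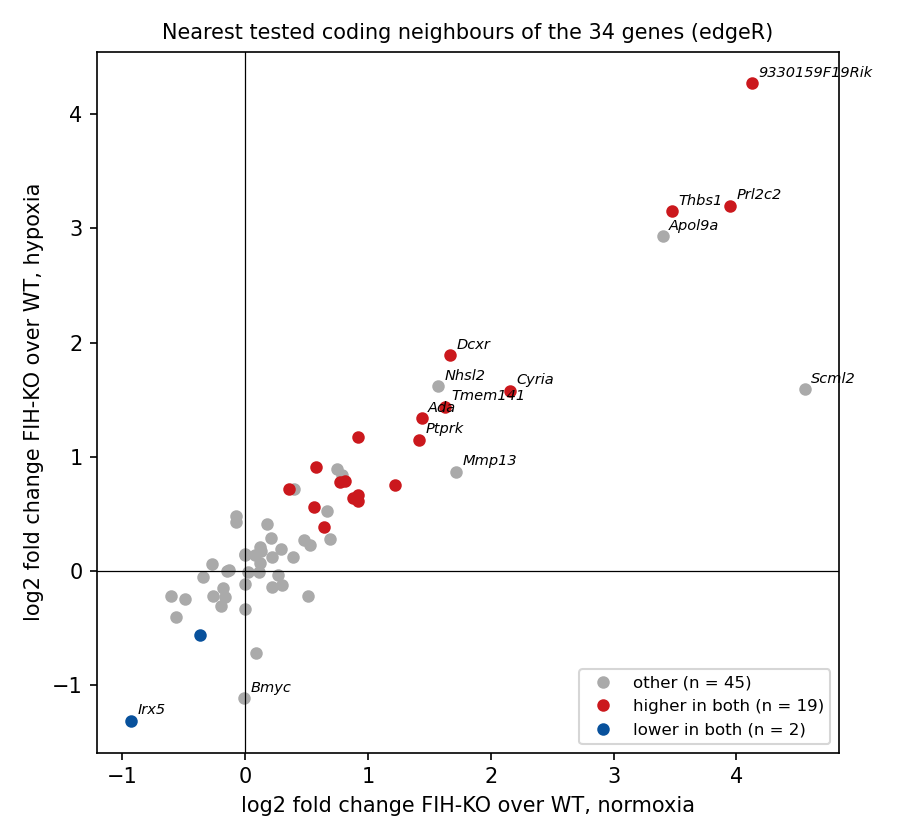
Log2 fold change of FIH-KO over WT in normoxia (horizontal) and hypoxia (vertical) for the 66 nearest tested protein-coding neighbours of the 34 genes (edgeR). Red points are the 19 neighbours higher in both oxygen conditions, blue the 2 lower in both, and most red points lie between 0 and 2 on both axes.

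Among the 19 neighbours higher in both oxygen conditions, the log2 fold changes were highest for 9330159F19Rik beside Soga3, Prl2c2 beside Prl2c5 and Thbs1 beside Gpr176. Thbs1, the matrix glycoprotein thrombospondin had 158, 180, 135 and 73 reads in WT and 1483, 2566, 688 and 1073 in FIH-KO libraries, a log2 fold change of 3.48 in normoxia (SE 0.28, edgeR adjusted p = 8.7e-06) and 3.15 in hypoxia (SE 0.29, adjusted p = 2.4e-05). The gene on the other side of Gpr176, the stress kinase Eif2ak4, was also higher in both (0.92 and 0.67). Around Soga3, a large gene at 0.397 TPM, the receptor phosphatase Ptprk, at 545.4 kb, rose by 1.42 and 1.15 on the log2 scale. On its other side 9330159F19Rik, 2.4 kb away on the same strand, had 0 or 1 read in WT and 9 to 14 in FIH-KO libraries, so that it was tested only through its reads in FIH-KO cells and its call had to be in that direction. The same holds for Apol9a beside Apol10b (0 or 1 read in WT, 4 to 14 in FIH-KO libraries). It holds too for Scml2 beside Nhs, which had 0 to 3 reads in WT and 3 to 21 in FIH-KO libraries. The log2 fold change of Scml2 was 4.56 in normoxia and 1.59 in hypoxia. Cyria beside Vsnl1, also among the 19, had 6 to 10 reads in WT and 14 to 49 in FIH-KO libraries. Nhsl2 beside Rtl5 had 2 to 6 and 12 to 15 reads. Cyria and Nhsl2 were likewise tested only through their reads in FIH-KO cells. Tmem141, 2.7 kb from Fcna, rose by 1.63 and 1.44. Both neighbours of Lmx1b, Zbtb43 and Mvb12b, were higher too, by 0.64 and 0.58 in normoxia and by 0.39 and 0.91 in hypoxia.

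Some neighbours were of the same enzyme class or family as the gene beside them. Dcxr, a dicarbonyl and xylulose reductase 2.2 kb from Cbr2, had 160, 143, 62 and 55 reads in WT and 563, 467, 266 and 155 in FIH-KO libraries, with log2 fold changes of 1.67 (SE 0.23, edgeR adjusted p = 0.00037) and 1.89 (SE 0.26, adjusted p = 0.00039). Mmp13, the collagenase 64.0 kb from Mmp12, was higher in normoxia (1.72, SE 0.42, adjusted p = 0.0092) and did not pass in hypoxia (0.87, SE 0.34, adjusted p = 0.076), where Mmp12 itself had most of its reads. Other relatives beside the 34 were not called in either condition: Mmp1b beside Mmp12 (0.30 in normoxia and -0.12 in hypoxia), Padi2 beside Padi1 (0.67 and 0.53), Mtmr1 beside Mtm1 (-0.07 and 0.43) and Akr1e1 beside Akr1c14 (0.13 and 0.18). The neighbours that were lower in both were Gars, beside Inmt (-0.37 and -0.56), and Irx5, beside Ces1a (-0.93 and -1.31).

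The selection limits fell in a continuous range of values. Irf7, Lmx1b and Mmp12 sat at the WT limit of 12 reads, and Enho with 13, Irag1 with 14 and Ccdc39 with 15 WT reads were just outside it. At the FIH-KO limit, Fcna (mean 20.75 reads), Prl2c5 (21) and Zfp503 (22) were just inside, and Lcn2 (19) and Coro1a (18.5) were outside it. Lcn2, lipocalin, had 1 and 0 reads in normoxic and 57 and 18 in hypoxic FIH-KO cells, the profile seen in Mmp12 and Prl2c5. The opposite selection, 12 or fewer reads summed over FIH-KO libraries and a mean of 20 or more in WT cells, held 47 protein-coding genes.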

How the data were processed

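RNA-Seq was performed on 8 libraries of WT and FIH-KO LLC cells, 2 per group, prepared with a stranded mRNA kit and sequenced in pairs. After bcl2fastq, the authors mapped the reads with STAR (genome build GRCm39) and used HTSeq to obtain a count for each gene. The values deposited by the authors are these raw counts, whole numbers without normalization, and all 8 columns were used. The submitters' processing notes also list GRCm38 beside GRCm39, and name DESeq2. The annotation release, the strand setting and the handling of reads with several matches are not given in the sources used here.

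The test was that of edgeR 4.0.16 (R 4.3.3, limma 3.58.1): filterByExpr by group, TMM factors, one quasi-likelihood fit with a mean for each group over all 8 libraries, and Benjamini-Hochberg adjustment over the 13933 tested genes, with calls at an adjusted p under 0.05. Tests are two-sided, and standard errors were taken as the fold change over the square root of F. The common biological coefficient of variation was 11.7%. CPM use TMM-scaled library sizes, and TPM the exon bases of the Ensembl canonical transcript. Data were also simulated for FIH-KO hypoxia against normoxia (13596 genes). In these data 83 of 100 genes changed by 2-fold and 93 of 100 changed by 4-fold were called, 0 in the wrong direction. Of the unchanged genes, 11 were called. These shares were not worked out separately for genes with as few reads as the selected genes. The median standard error of the log2 fold change was 0.42 over the selected genes and 0.17 over all tested genes. The shares therefore do not give the power of the test for the selected genes. Settings tried as alternatives were DESeq2 1.42.0, RLE and upper-quartile factors, other filters on low counts, a fit to the libraries of the contrast alone, a replicate block, and leaving out each library.

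Positions and start windows are from GRCm39 with GENCODE vM39, which held 52610 of the 53700 identifiers and all 34 genes, 1 of them (Soga3) under another symbol. Shared sequence was measured as 75-base windows of the canonical transcript found in transcripts of other genes. Python 3.11.15, pandas 2.3.3, numpy 2.4.6 and matplotlib 3.10.9 were used. The 34 genes, the gene lists and the markers were chosen with earlier results of these data known, and the lists come from general knowledge. Genes named with values were the 12 highest by CPM in FIH-KO cells, those past the threshold for oxygen, up to 4 per list by CPM, adjacent pairs, and those at the limits of the selection. A gene selected by the limits and one just outside them are not reported here, though counts over the 34 genes include the first. Fgfr2, Gpr176, Tnfrsf14, Gbgt1, Soga3 and Zc3h12b fall outside that rule and were named after their values were seen, as were the neighbours and the non-selected genes of the lists.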

Additional observations from a re-analysis of the deposited data

Results flagged for a closer look

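Among genes that are not protein coding, which no comparison above uses, 2 long noncoding RNAs met the same limits on reads. Both lie on chromosome 2 next to one of the 34 genes, and both stood out because reads appeared in FIH-KO cells above the WT level. C130021I20Rik (chr2:33531495-33556659, plus strand) had 0, 0, 0 and 3 reads in WT libraries and 45, 31, 39 and 43 in FIH-KO libraries, a mean of 39.5. It starts 0.4 kb from the start of Lmx1b and runs away from it on the opposite strand. Gm10134 (chr2:28396111-28397785, plus strand) had 0, 2, 0 and 0 reads in WT libraries and 37, 36, 26 and 20 in FIH-KO libraries, a mean of 29.75. It lies 0.06 kb beyond the end of Gbgt1 on the same strand, and reads that run past the end of Gbgt1 could not be told apart from its own. Neither passed the oxygen test within FIH-KO cells (edgeR log2 fold change 0.25, SE 0.44, adjusted p = 0.75 for C130021I20Rik, and -0.52, SE 0.42, adjusted p = 0.44 for Gm10134). As in the 34 genes, their difference between FIH-KO and WT cells was what picked them out and was not tested.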

How the results depend on the processing

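Across the alternatives, the calls for Inmt and Cemip, and those for Mmp12, Prl2c5 and Vsnl1, which met the lower limit in 1 oxygen condition only, held wherever the gene was tested, and those for Mtm1 and Abi3bp did not. The genes called within FIH-KO cells went from 1231 higher and 1114 lower in hypoxia to 808 and 481 in a fit to the 4 FIH-KO libraries alone, and to 675 to 1333 and 422 to 1271 when 1 library was left out. Of the 34 genes, 3 were higher and 4 lower. With no filter on low counts 7 were lower (Nhs, Ccn5 and Aff3 added), Ccn5 and Aff3 having met the lower limit in normoxia only. With at least 10 counts in every library of the contrast 31 could be tested and 1 was higher, since Mmp12, Prl2c5 and Vsnl1 were not tested. DESeq2 called 2 higher and 4 lower. Leaving out 1 library gave 2 to 3 higher and 4 to 6 lower. The sign turned when 1 library was left out for Tppp (-0.66 to 0.81), Cdc42ep3 (-0.58 to 0.83), Rtl5 (-0.05 to 0.18), Soga3 (-0.96 to 0.54), Tnfrsf14 (-0.56 to 0.73), Zc3h12b (-0.21 to 0.12) and Zfp503 (-0.79 to 0.04), none of which passed in any fit. Of 492 values of single genes under alternatives, 467 kept direction and side of the threshold. Among the neighbours, DESeq2 called 3 rather than 5 lower in normoxia. Leaving out 1 library gave 14 to 26 higher and 0 to 6 lower in normoxia, and 13 to 23 higher and 3 to 5 lower in hypoxia. A lone library in a group was assumed to vary like the other groups.

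The labels number the libraries 1 and 2 in each group without saying that a number marks a shared culture or day, and deviations of same-numbered libraries correlated at -0.0104 to 0.193, so the numbers were not taken as pairs. With a replicate block 1272 genes were higher and 1207 lower, and of the 34 genes 3 were higher and 5 lower, Nhs being added at an adjusted p of 0.046. The neighbours then had 24 and 21 higher and 5 and 3 lower.

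The number of selected genes moves with the limits: 11 with 4 or fewer WT reads, 70 with 24 or fewer, 62 with a FIH-KO mean of 10 or more, 14 with 50 or more, and 32 to 39 when 1 library was left out. The cause of these changes was not tested, apart from the fewer genes or libraries that enter a fit. Limits are the 2 libraries per group, the low counts (a median over the 34 genes of 43 reads per FIH-KO library), and an FIH-KO line of unstated clonal makeup.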
